A study of Mus musculus with 24 samples.

Results

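The omega-6 fatty acid linoleic acid (LA) was compared with ANGPTL4 protein in C2C12 cells, a mouse myoblast line of wild-type genotype, after 6 days of differentiation. The members were the 8 libraries labelled with these treatments at day 6, 4 a group, of 24 libraries in the series. Growth medium held 10% fetal bovine serum, and a switch to 2% horse serum started differentiation. LA was given bound to bovine serum albumin at 100 µM, and ANGPTL4 was given as recombinant mouse protein at 10 ng/mL, each during differentiation. The other 4 groups were vehicle at day 6 and vehicle, LA and ANGPTL4 at day 2, with 4 libraries each. Their values stand beside those of the comparison. The series title ties LA, ANGPTL4, muscle differentiation and Wnt/β-catenin signalling together, and LA against ANGPTL4 asks where cells given the fatty acid differed from cells given the protein. The labels do not say whether the libraries of a group came from separate cultures, so the p-values measure only the spread between these libraries, which may be technical.

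Cells secrete ANGPTL4, which blocks lipoprotein lipase, and its gene is a target of the peroxisome proliferator-activated receptors (PPARs), nuclear receptors that bind fatty acids and switch on genes of fatty acid oxidation and storage. In differentiating myoblasts the factors Myod1 and Myog switch on muscle genes, myomaker and myomixer let the cells fuse, and the myotubes then build sarcomeres and the calcium release apparatus. In canonical Wnt signalling a Wnt ligand binds a Frizzled receptor with Lrp5 or Lrp6, β-catenin is spared from breakdown and acts with TCF/LEF factors in the nucleus, and secreted frizzled-related proteins and Dickkopf proteins act against the ligand or its receptors.

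Libraries of the 3′ ends of transcripts held 8.19 to 15.2 M counts with LA (mean 10.98 ± 3.00 M, SD, n = 4) and 6.101 to 9.07 M with ANGPTL4 (7.66 ± 1.22 M). The LA totals were the higher ones on average, with an overlap (exact permutation p = 0.0571, two-sided, 0.0952 after adjustment over 5 such measures, with 0.0286 the smallest p that 70 splits allow). Genes with at least 1 count numbered 14417 to 14627 with LA and 14277 to 14361 with ANGPTL4, with no overlap (exact permutation p = 0.0286, 0.0714 after that adjustment). With every library thinned to the total of the smallest, an alternative added after seeing the data, 1519 genes were called between LA and ANGPTL4 at day 6. On principal components of the 12 day 6 libraries, component 1 (26.3% of the variance) put the LA libraries at 14.99 to 26.4, the ANGPTL4 libraries at -14.8 to -10.4 and the vehicle libraries at -12.5 to -3.14. ANGPTL4 library 1, with the fewest counts of the 24, stood apart on component 2 (16.7% of the variance) at 23.4, against -14.3 to -12.7 for the other 3 of its group. Values without it are given where they bear on a result. Markers of differentiating muscle were present in all 8 libraries. On the scale of CPM, counts scaled to a common library size, Acta1 (skeletal α-actin) lay at 2666 to 3778, Myog at 632 to 828 and Mymk (myomaker) at 294 to 443.

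Of 12994 genes tested, 858 (6.60%) were called higher and 951 (7.32%) lower with LA than with ANGPTL4, 1809 in all (13.9%). The shares of 6.60% and 7.32% are the background for each count of a gene list below. A call is an adjusted p under 0.05 in edgeR's quasi-likelihood test with Benjamini-Hochberg adjustment over all genes tested, and every adjusted p below is of that test unless another tool is named. The largest differences were rises with LA: 127 genes were at least 2-fold higher and 21 at least 2-fold lower. The median size of a called difference was 0.33 on the log2 scale, and the median over all genes tested was -0.01. In 2500 genes (19.2% of those tested) the 4 LA libraries did not overlap the 4 ANGPTL4 libraries, and 1565 of these were called. Most called genes thus had no overlap, so its mention for a called gene below is a description and not further support. With library totals alone as the scale, 1143 genes were higher and 675 lower. Without LA library 2, 1272 were called, 585 of them lower, and without ANGPTL4 library 1, 792 were higher and 796 lower.

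**Figure D1:**
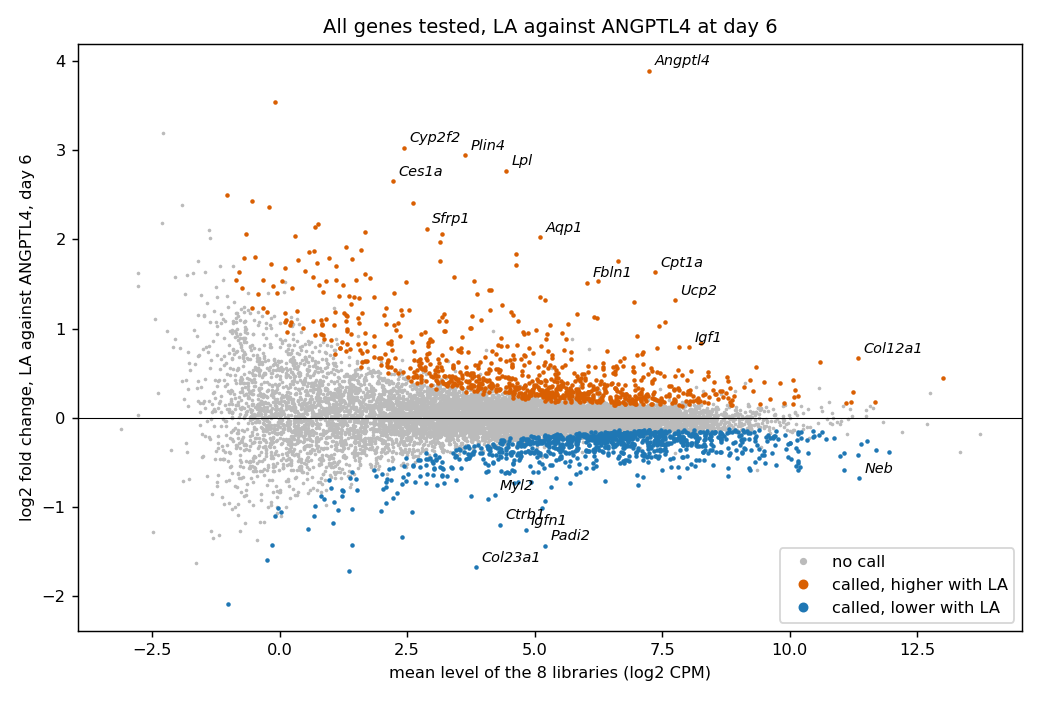
Each point is a gene tested, with its mean level over the 8 libraries (log2 CPM) on the horizontal axis and its log2 fold change, LA against ANGPTL4 at day 6, on the vertical axis; orange points were called higher and blue points lower with LA. Angptl4 sits alone at 3.89, Cyp2f2 and the lipid genes Plin4 and Lpl follow near 3, and 21 of the lower calls pass -1.

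Genes that answer fatty acids through PPARs held some of the largest rises. Angptl4 itself was at 302, 261, 306 and 269 CPM in LA libraries 1 to 4 and at 18.01, 17.5, 18.6 and 22.1 CPM in ANGPTL4 libraries 1 to 4, against 20.8 ± 0.759 CPM with vehicle (mean ± SD, n = 4, as for all CPM below). No LA library came near the others, and the groups given the protein and the vehicle overlapped. The transcript was 14.8-fold higher with LA than with ANGPTL4 (log2 fold change 3.89 ± 0.07, the error of these being an SE, adjusted p = 1.42e-29). Counts of RNA do not see the protein that was added, so these levels are of the cells' own transcript.

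Lpl, the lipoprotein lipase that ANGPTL4 inhibits, was at 26.0, 42.8, 34.8 and 47.7 CPM with LA and at 4.42, 4.97, 7.28 and 5.18 CPM with ANGPTL4. All 4 LA libraries lay above all others at day 6, and the difference was 6.81-fold (log2 2.77 ± 0.27, adjusted p = 6.96e-07). Its vehicle libraries were at 6.06 ± 1.97 CPM. Cpt1a, which carries long-chain fatty acids into mitochondria, was at 247, 239.9, 254 and 258 CPM with LA and 73.9, 83.9, 79.8 and 83.5 CPM with ANGPTL4, a narrow spread in each group and no overlap (log2 1.63 ± 0.05, adjusted p = 2.06e-22). Pdk4, a kinase that turns off pyruvate dehydrogenase and so spares glucose, averaged 112 ± 10.9 CPM with LA and 38.6 ± 3.55 CPM with ANGPTL4 (log2 1.54, adjusted p = 1.38e-09). Ucp2, a mitochondrial carrier, was at 343, 266, 355 and 267 CPM with LA, where libraries 1 and 3 lay above libraries 2 and 4, and at 123, 127, 123 and 121 CPM with ANGPTL4 (log2 1.32, adjusted p = 3.49e-11). Ucp3, the muscle relative of Ucp2, was low but apart, at 3.38, 2.48, 2.697 and 2.27 CPM with LA and 0.8496, 0.392, 0.809 and 0.4502 CPM with ANGPTL4 (log2 2.17, adjusted p = 2.9e-05). It was chosen after its values were seen.

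Of 42 genes listed as PPAR targets or fatty acid responders, 35 were tested, 15 were called higher and 0 lower, beside 6.60% and 7.32% of all genes. The median of the list was 0.16, against -0.01 over all genes. Fabp4 and Cyp4b1 were not among the genes of the table analysed here, and Cpt1b, Plin5, Ehhadh and Creb3l3 were removed for low counts. Among enzymes of β-oxidation, Acaa2 rose by 0.52 and Acadl by 0.30 on the log2 scale (adjusted p = 5.31e-06 and 1.27e-05, both chosen after their values were seen). Acadvl, which acts on very long chains, was at 132 ± 9.204 CPM with LA and 131 ± 6.37 CPM with ANGPTL4 and was not called. Cd36, a fatty acid transporter and also a PPAR target, was at 105, 101, 102 and 107 CPM with LA and 90.2, 95.2, 103 and 109 CPM with ANGPTL4, and the groups overlapped (log2 0.06 ± 0.11, adjusted p = 0.815). The summed level of the list was 3080 to 3400 CPM with LA and 2244 to 2360 CPM with ANGPTL4. Without ANGPTL4 library 1, 12 of the list were called higher.

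**Figure D2:**
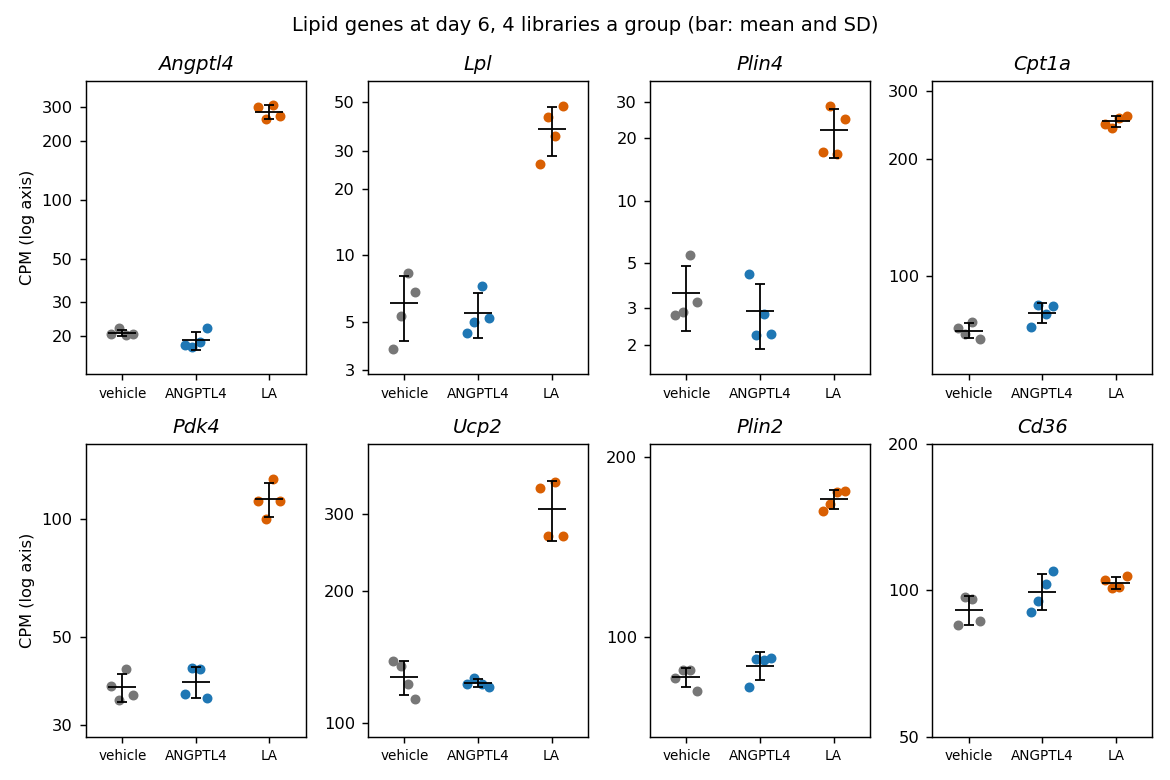
CPM (log axis) of 8 lipid genes in the day 6 libraries given vehicle (grey), ANGPTL4 (blue) or LA (orange); each point is a library and the bar is the mean with its SD over 4 libraries. In 7 of the 8 genes all LA libraries lie above all others, and in Cd36 the LA libraries overlap those given ANGPTL4.

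Lipid droplet genes split. Plin4 and Plin2, coat proteins of droplets, rose: Plin4 was at 17.2, 28.8, 16.8 and 24.8 CPM with LA and 4.42, 2.22, 2.83 and 2.25 CPM with ANGPTL4 (log2 2.95 ± 0.23, adjusted p = 4.53e-09). Plin2 was at 162, 167, 175 and 175 CPM with LA and 82.2, 91.6, 91.4 and 92.2 CPM with ANGPTL4, again with no overlap (log2 0.92 ± 0.05, adjusted p = 1.4e-14). Lipe, the hormone-sensitive lipase, was 2.302-fold higher with LA (adjusted p = 4.36e-06). In all, 5 of 16 tested members of this list were called higher and 2 lower. The other higher ones, chosen after their values were seen, were Hilpda (log2 0.65), an inhibitor of adipose triglyceride lipase, and Dgat2 (log2 0.75, adjusted p = 0.0397), which makes triglyceride. Lpin1, a phosphatidate phosphatase, fell from 45.7 ± 0.812 CPM with ANGPTL4 to 36.2 ± 2.92 CPM with LA (adjusted p = 0.00102), and Fitm2, likewise chosen afterwards, by 0.30 on the log2 scale (adjusted p = 0.0394). The call of Dgat2 was lost without LA library 2, 3 or 4 or ANGPTL4 library 2, 3 or 4 (adjusted p 0.0560 to 0.146), and that of Fitm2 without LA library 2 or 4 or ANGPTL4 library 3 or 4 (0.115 to 0.190). Limma-voom called neither Dgat2 (0.0584) nor Fitm2 (0.0639), and nor did edgeR on libraries thinned to the lowest depth (0.221 and 0.0851). Fitm2 was also lost with library totals alone (0.0923) and with no filter on low counts (0.0526), and Dgat2 with the replicate block (0.0502).

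Sterol synthesis ran the other way. SREBP2 is the factor that switches that pathway on when cell sterol is short. Of 24 tested genes of the pathway and other SREBP2 targets, 10 were called lower with LA and 0 higher. In 22 of 24 the log2 fold change was below 0 (list median -0.18). The summed level of the list overlapped between the groups. It was 2210, 2536, 2193 and 2673 CPM in LA libraries 1 to 4 and 2569 to 2813 CPM with ANGPTL4. Ebp, a sterol isomerase, was at 56.6, 58.6, 57.9 and 66.2 CPM with LA and 87.0, 80.9, 91.4 and 89.3 CPM with ANGPTL4, with no overlap (log2 -0.54 ± 0.06, adjusted p = 2.51e-07). Dhcr7, which catalyses a last step to cholesterol, was at 60.9, 55.98, 58.6 and 59.2 CPM with LA and 84.96, 77.01, 91.7 and 80.3 CPM with ANGPTL4 (log2 -0.51 ± 0.07, adjusted p = 7.71e-06). Of 17 genes of fatty acid synthesis and desaturation, 2 were called lower, beside 7.32% of all genes, and 0 higher: Scd2, a desaturase, at 1735 ± 129 CPM with LA and 2024 ± 103 CPM with ANGPTL4 (adjusted p = 0.0201), and Acsl3, an acyl-CoA synthetase (log2 -0.18, adjusted p = 0.0193). Neither call was firm, and the list's counts moved with the setting. Its lower count was 0 with library totals alone or without LA library 1 or 3 or ANGPTL4 library 4 and 1 without LA library 2 or ANGPTL4 library 1, 2 or 3. Its higher count was 4 with library totals alone, 3 without LA library 1 and 1 with the groups fitted alone or after thinning. With library totals alone Scd2 had an adjusted p of 0.0876, it was also lost without LA library 1, 2 or 3 or ANGPTL4 library 3 or 4 (0.0503 to 0.112), and Acsl3 was lost with library totals alone (0.0685) and without LA library 1 or 3 or ANGPTL4 library 1, 2 or 4 (0.0548 to 0.109).

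The muscle program was lower with LA than with ANGPTL4 from its regulators to its sarcomere. Among 20 myogenic regulators, 9 were called lower and 2 higher with LA (list median -0.21). Cdkn1a, the inhibitor p21 that holds myocytes out of the cell cycle, was at 1033, 846, 1084 and 892 CPM with LA and 1302, 1354, 1339 and 1386 CPM with ANGPTL4 (log2 -0.48 ± 0.07, adjusted p = 4.74e-06). Mef2c, a factor that acts with Myod1 and Myog on muscle genes, was at 624, 584, 671 and 611 CPM with LA and 805, 831, 833 and 849.8 CPM with ANGPTL4 (log2 -0.42 ± 0.07, adjusted p = 0.000145). In both genes each LA library lay below each ANGPTL4 library. Tead4, a partner of YAP that Myod1 and Myog switch on in myoblasts, fell by 0.34 (adjusted p = 1.93e-05).

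Myod1 and Myog themselves were also called lower. Myod1 was at 114, 104, 121 and 113 CPM with LA and 128, 135, 128 and 134 CPM with ANGPTL4 (log2 -0.22 ± 0.06, adjusted p = 0.00546), and Myog at 722, 632, 725 and 647 CPM and 784, 828, 778 and 787 CPM (log2 -0.22 ± 0.06, adjusted p = 0.0184). The libraries did not overlap in either gene. The call of Myod1 was lost without LA library 2 (adjusted p = 0.0535), and that of Myog with library totals alone (0.0649) and without LA library 2 or 4 or ANGPTL4 library 2 or 4 (0.0508 to 0.123). The 2 regulators called higher, chosen after their values were seen, were Myf5, a factor of proliferating myoblasts, at 9.42, 11.6, 10.9 and 11.3 CPM with LA and 7.82, 6.54, 6.74 and 8.44 CPM with ANGPTL4 (log2 0.54, adjusted p = 0.00414), and Eya1 (log2 0.60, adjusted p = 0.00387). Pax7, the marker of satellite cells, was at 21.8 ± 1.85 CPM and 19.1 ± 1.73 CPM and was not called (adjusted p = 0.166). In bulk RNA, fewer differentiated cells and less muscle RNA per cell cannot be told apart.

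Of 23 tested genes of myoblast fusion, 9 were called lower and 4 higher with LA. Mymk, the membrane protein myomaker, was at 346, 294, 349 and 309 CPM with LA and 412, 443, 405 and 435 CPM with ANGPTL4, without overlap (log2 -0.39 ± 0.07, adjusted p = 0.000169). Its partner Mymx, myomixer, was at 40.1 ± 5.18 CPM and 48.4 ± 3.14 CPM (adjusted p = 0.016), a call lost without LA library 2 or 4 or ANGPTL4 library 2 (0.0836 to 0.0970). Cav3, the caveolin of muscle, fell by 0.42, Itga7, a laminin receptor, by 0.29 and Cdh15, M-cadherin, by 0.25 on the log2 scale (adjusted p = 8.72e-05, 0.00106 and 0.000508). The genes called higher were Elmo1 and Dock1, which together activate Rac, Kirrel, an adhesion protein, and Gdf15. Elmo1 was at 16.7, 18.5, 18.5 and 16.8 CPM with LA and 11.2, 8.63, 7.82 and 7.77 CPM with ANGPTL4 (2.01-fold, adjusted p = 1.55e-06). Dock1 (log2 0.32) and Gdf15 (log2 0.64, adjusted p = 0.0477) were chosen after their values were seen. The call of Gdf15 was lost without any single library except ANGPTL4 library 1 (adjusted p 0.0598 to 0.207). Limma-voom (0.0688) and DESeq2 (0.0622) did not call it, it was lost with the replicate block (0.0534), and after thinning its log2 fold change was 0.40 (0.351).

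Sarcomere genes fell nearly as a group. Of 65 tested, 56 were called lower with LA (86.2%, beside 7.32% of all genes) and 0 higher, and 64 of 65 had a log2 fold change below 0, with a list median of -0.40. Acta1 was at 3053, 2666, 3044 and 2865 CPM with LA and 3679.6, 3763, 3778 and 3713 CPM with ANGPTL4 (log2 -0.36 ± 0.05, adjusted p = 5.31e-06). Neb, nebulin, which sets thin filament length, was at 2202, 2032, 1898 and 1964 CPM with LA and 3632, 3332, 2964 and 3007 CPM with ANGPTL4 (log2 -0.68 ± 0.10, adjusted p = 3.18e-05). In neither gene did a library of the LA group reach the lowest ANGPTL4 library. Myom2, an M-band protein, and Actn3, an α-actinin of fast fibres, fell by 0.54 and 0.49, and Ankrd1, which binds titin, by 0.50 on the log2 scale (adjusted p = 7.77e-08, 9.61e-08 and 3.02e-09).

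The myosin heavy chains, which share much of their sequence, are given as a family. Embryonic Myh3 was at 3489, 3242, 3467 and 3522 CPM with LA and 4629, 4596, 4385 and 4306 CPM with ANGPTL4 (log2 -0.38 ± 0.06, adjusted p = 2.68e-05). Of the adult chains, chosen after their values were seen save Myh4, Myh1 (type IIx) fell by 0.59, Myh2 (type IIa) by 0.50 and Myh7 (slow) by 0.53 on the log2 scale (adjusted p = 3.27e-06, 0.0029 and 1.05e-05). Perinatal Myh8 and Myh4 (type IIb) were not called, at log2 values of -0.33 and -0.22 (adjusted p = 0.102 and 0.171), although in both all LA libraries lay below all ANGPTL4 libraries. With the 2 groups fitted alone, both were called (0.00383 and 0.00477; over all alternatives run, 0.00383 to 0.327 for Myh8 and 0.00477 to 0.372 for Myh4). Myl2, the slow regulatory light chain, was at 13.6, 10.8, 13.1 and 15.1 CPM with LA and 23.8, 25.1, 24.1 and 22.96 CPM with ANGPTL4 (log2 -0.87 ± 0.11, adjusted p = 1.47e-06).

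Ttn, titin, spread widely between libraries. It was at 10258, 10448, 8009 and 7378 CPM with LA and at 17282, 9908, 10044 and 9786 CPM with ANGPTL4, where library 1 stood far above the other 3, and it was not called (log2 -0.38 ± 0.22, adjusted p = 0.302; chosen after its values were seen). The summed level of the sarcomere list was 44318 to 48817 CPM with LA, 57408 to 67840 CPM with ANGPTL4 and 59360 to 62900 CPM with vehicle, and ANGPTL4 library 1 held the highest of these sums. Without that library, 54 of the 65 genes were called lower with a median of -0.40.

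The machinery that couples excitation to contraction fell as well, with 23 of 30 tested genes called lower, 0 higher and all 30 below 0 (median -0.30). Cacna1s, the voltage sensor of the T-tubule, was at 258, 230.1, 257 and 257 CPM with LA and 346, 355, 348 and 347 CPM with ANGPTL4 (log2 -0.48 ± 0.06, adjusted p = 1.83e-07). Ryr1, the calcium release channel it opens, was at 588, 537, 563 and 580.3 CPM with LA and 800.2, 789.7, 762 and 749 CPM with ANGPTL4 (log2 -0.45 ± 0.06, adjusted p = 5.85e-07). In both genes the LA libraries lay below all ANGPTL4 libraries. Atp2a1, the calcium pump SERCA1, fell by 0.53, and Pvalb, parvalbumin, a calcium buffer at 1.34 ± 0.684 CPM with LA, by 1.43 on the log2 scale (adjusted p = 2.63e-06 and 0.000318). These 2 were chosen after their values were seen.

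Of 15 genes of the acetylcholine receptor and synapse, 4 were called lower, and these were the receptor subunits of embryonic muscle. Chrng, the γ subunit, was at 246, 204, 239.9 and 233 CPM with LA and 346, 353, 322 and 319 CPM with ANGPTL4 (log2 -0.54 ± 0.05, adjusted p = 7.98e-09). Chrnd, the δ subunit, was at 156, 129, 151 and 140.2 CPM with LA and 192, 211, 194 and 194 CPM with ANGPTL4 (log2 -0.46 ± 0.05, adjusted p = 2.72e-07). Chrna1 and Chrnb1 fell by 0.30 and 0.30 (adjusted p = 3.84e-06 and 9.24e-05). No LA library overlapped an ANGPTL4 library in any of the 4 subunits, beside 19.2% of all genes tested without overlap. Des, desmin, the intermediate filament of muscle, which stood in the list of smooth muscle markers, was at 1853, 1732, 1913 and 1921 CPM with LA and 2500.3, 2473, 2448 and 2333 CPM with ANGPTL4 (log2 -0.39 ± 0.05, adjusted p = 8.02e-07). Synpo2 was the other of 10 smooth muscle markers called, also lower (log2 -0.43).

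Promoters of these muscle genes were read for CAGCTG, an E-box of the kind that Myod1 and Myog bind, which reads the same on both strands. Sequences of 250 bases before the gene's start came from RefSeq (GRCm38.p6) for 10289 of the 12994 tested genes, and 1512 of them (14.7%) held the motif. It stood in 20 of 52 sarcomere genes with a sequence (38.5%), in 18 of the 45 called lower (40.0%), in 152 of 731 genes called lower overall (20.8%) and in 112 of 673 called higher (16.6%). A match is a description of these letters, not a measured site. A second motif, the MEF2 site, was also searched. It stood in 9 of the 52 sarcomere genes (17.3%) and in 366 of the 10289 genes (3.56%). Among genes called lower it stood in 43 of 731 (5.88%), and among those called higher in 24 of 673 (3.57%). The 3 promoters below belong to genes of the receptor, the filament and the sarcomere that fell with LA. Each holds 0 MEF2 sites. All 3 hold CAGCTG, which most sarcomere genes with a sequence did not, so they are examples and not typical. Capitals mark CAGCTG. Chrng (chr1:87205561-87205810, plus strand) holds it 155 and 132 bases before the start, Des (chr1:75360042-75360291, plus strand) 36 bases before, and Acta1 (chr8:123894776-123895025, minus strand) 221 bases before.
Chrng: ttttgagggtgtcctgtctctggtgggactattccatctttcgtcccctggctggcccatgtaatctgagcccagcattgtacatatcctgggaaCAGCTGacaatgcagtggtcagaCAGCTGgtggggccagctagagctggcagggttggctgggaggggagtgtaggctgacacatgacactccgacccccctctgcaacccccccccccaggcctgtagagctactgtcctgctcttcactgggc
Des: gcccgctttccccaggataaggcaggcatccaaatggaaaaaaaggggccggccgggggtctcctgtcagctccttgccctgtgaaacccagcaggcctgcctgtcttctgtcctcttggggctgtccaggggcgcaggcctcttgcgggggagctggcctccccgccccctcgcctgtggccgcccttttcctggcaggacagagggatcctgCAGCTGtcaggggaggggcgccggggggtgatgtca
Acta1: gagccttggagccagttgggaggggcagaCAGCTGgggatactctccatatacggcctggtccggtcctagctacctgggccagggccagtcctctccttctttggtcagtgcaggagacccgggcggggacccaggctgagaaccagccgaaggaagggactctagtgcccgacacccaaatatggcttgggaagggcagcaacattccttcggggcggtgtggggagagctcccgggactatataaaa

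Of 27 tested genes of muscle energy use, 10 (37.0%) were called lower and 2 (7.41%) higher with LA (median -0.22). The shares over all genes were 7.32% and 6.60%. Mb, myoglobin, was at 392, 334, 382 and 329.6 CPM with LA and 526, 567, 517 and 509.7 CPM with ANGPTL4 (log2 -0.56 ± 0.07, adjusted p = 1.46e-06). Gys1, glycogen synthase, fell by 0.48, Pygm, the muscle glycogen phosphorylase, by 0.46 and Pfkm, the muscle phosphofructokinase, by 0.46 on the log2 scale (adjusted p = 1.45e-07, 1.98e-07 and 1.42e-05). Ckm, muscle creatine kinase, was at 149.6, 134, 149.7 and 128 CPM with LA and 197, 206, 159 and 168 CPM with ANGPTL4 (adjusted p = 0.0208), a call lost without LA library 2 or 4 or ANGPTL4 library 1 or 2 (0.0631 to 0.0852). The 2 higher genes, chosen after their values were seen, were Ppp1r3c, which targets a phosphatase to glycogen, at 4.25 ± 0.625 CPM with LA and 1.86 ± 0.437 CPM with ANGPTL4 (log2 1.17, adjusted p = 0.00094), and Ldha (log2 0.15, adjusted p = 0.0368). The call of Ldha was lost without any single library but LA library 3 or ANGPTL4 library 4 (0.0553 to 0.0997).

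**Figure D3:**
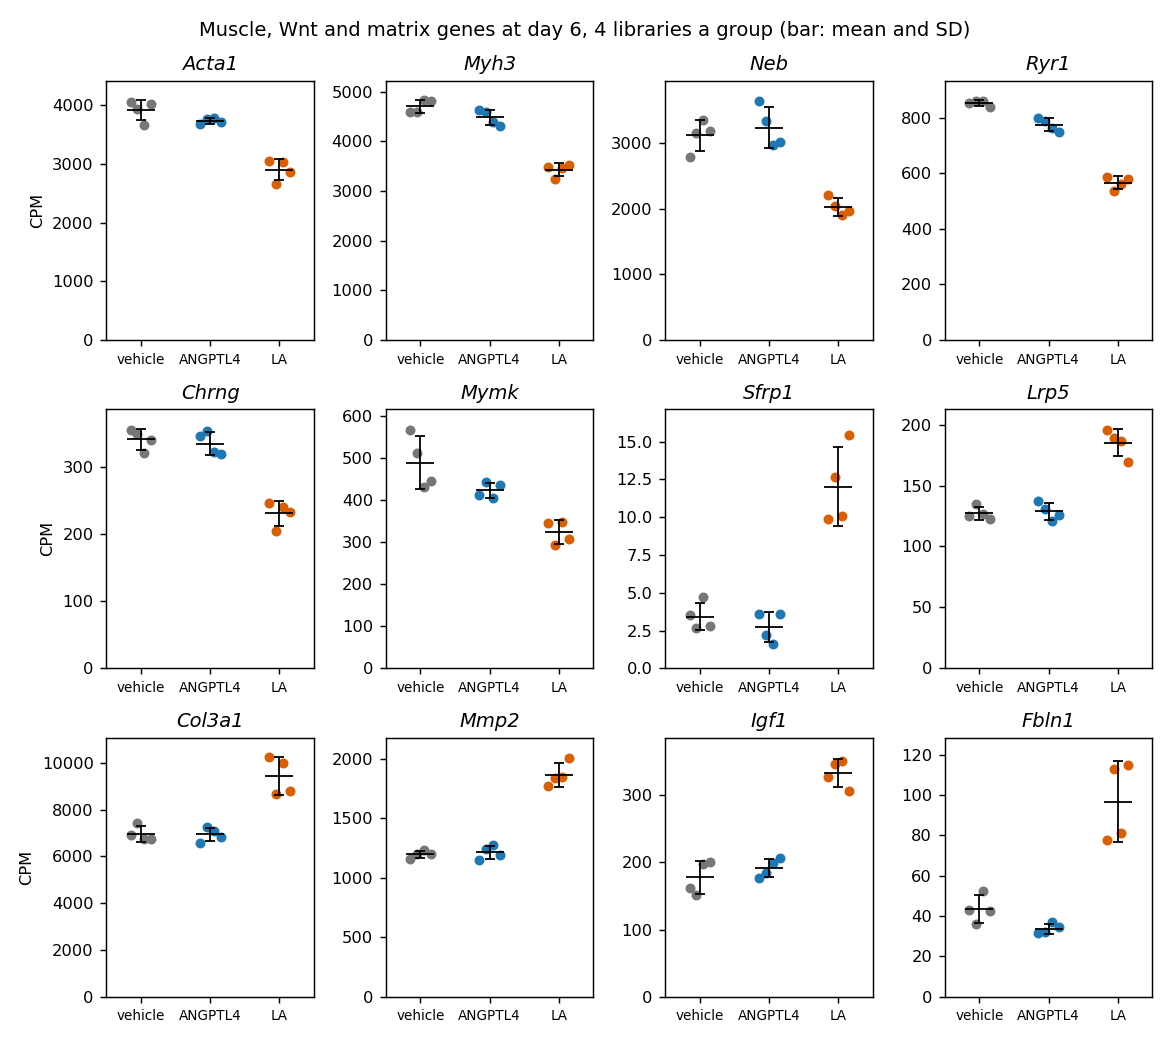
CPM of 12 genes of muscle, Wnt signalling and matrix in the day 6 libraries given vehicle (grey), ANGPTL4 (blue) or LA (orange); each point is a library and the bar is the mean with its SD over 4 libraries. In the 6 muscle genes from Acta1 to Mymk the LA libraries lie below all others, and in the 6 genes from Sfrp1 to Fbln1 they lie above all others.

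Wnt signalling genes were called most often among the antagonists of the ligands and their receptors. Among 11 tested antagonists, 7 were called higher with LA and 0 lower, and all 11 had a log2 fold change above 0 (median 0.63). The list held 21 antagonists. Of these, 8 were not among the genes of the table analysed here (Dkk1, Dkk4, Sfrp5, Frzb, Sost, Sostdc1, Draxin and Shisa3). Low counts removed 2 more, Kremen2 and Notum. Sfrp1, a secreted frizzled-related protein, was at 9.88, 12.7, 10.1 and 15.5 CPM with LA and 3.57, 2.22, 1.62 and 3.602 CPM with ANGPTL4 (log2 2.12 ± 0.29, adjusted p = 1.59e-05). Sfrp2 was at 279, 315, 277 and 286 CPM with LA and 157, 164, 175 and 170.0 CPM with ANGPTL4 (log2 0.80 ± 0.12, adjusted p = 0.000126). Sfrp4, of the same family, rose by 0.90, and Igfbp4, a binding protein of insulin-like growth factors that also acts against Wnt receptors, by 0.72 on the log2 scale (adjusted p = 2.9e-05 and 6.89e-05). No LA library overlapped an ANGPTL4 library in these 4 genes, beside 19.2% of all genes tested without overlap. Dkk2, Dkk3 and Apcdd1 were also called higher (log2 1.12, 0.46 and 0.46; chosen after their values were seen). These 3 calls were less steady, being lost without LA library 2 (adjusted p 0.0660, 0.0861 and 0.0723). Dkk2 was also lost without LA library 4 (0.0503) or ANGPTL4 library 2 (0.0812), Apcdd1 without ANGPTL4 library 3 (0.0899), and Dkk3 without any other single library but ANGPTL4 library 3 (0.0525 to 0.0886), so that 4 antagonists were called without LA library 2. Thinning also left 4.

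At the receptor, Lrp5 was at 196, 189, 187 and 169 CPM with LA and 138, 131, 121 and 126 CPM with ANGPTL4 (log2 0.53 ± 0.06, adjusted p = 6.54e-08), and Lrp6 at 245, 273, 242 and 244 CPM and 221, 187, 202 and 198 CPM (log2 0.31 ± 0.06, adjusted p = 0.000496). Both co-receptors were thus higher in every LA library than in any ANGPTL4 library. Of 37 tested core genes, 7 were called higher and 1 lower, with a median of 0.02. The others called higher by the naming rule were Fzd1, a receptor (log2 0.22, adjusted p = 0.00387), and Tcf7l1, a TCF factor that represses targets (log2 0.45, adjusted p = 0.0014). The 1 lower gene, chosen after its values were seen, was Csnk1a1, casein kinase 1α (log2 -0.17, adjusted p = 0.0348), which was not called with library totals alone (0.121) or without LA library 2 or 4 or ANGPTL4 library 2, 3 or 4 (0.119 to 0.218).

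Ctnnb1, β-catenin, was at 697, 726, 695 and 756 CPM with LA and 623, 668, 713 and 678 CPM with ANGPTL4, with an overlap and no call (log2 0.10 ± 0.04, adjusted p = 0.138). With library totals alone it was called (0.0479; over all alternatives run, 0.0479 to 0.36). Axin2 and Lef1, genes that β-catenin with TCF/LEF switches on in many cells, were at 9.48, 9.44, 10.5 and 10.4 CPM and 10.01, 10.1, 10.5 and 8.67 CPM with LA and at 10.2, 12.2, 12.8 and 10.1 CPM and 11.9, 10.7, 8.09 and 9.68 CPM with ANGPTL4. The groups overlapped in both (log2 -0.19 ± 0.11 and -0.03 ± 0.12, adjusted p = 0.284 and 0.929). Of 20 listed β-catenin targets, 5 were called higher and 1 lower (median 0.05). Ccn5, a matricellular protein also known as WISP2, was at 67.8, 69.04, 60.6 and 55.8 CPM with LA and 31.6, 36.1, 34.5 and 34.6 CPM with ANGPTL4 (log2 0.89 ± 0.08, adjusted p = 9.82e-10). Bmp4, a growth factor, rose by 0.50 and Cd44, a hyaluronan receptor, by 0.22, while Fst, follistatin, which binds myostatin and activins, fell by 0.35 (adjusted p = 0.00137, 0.00255 and 4.9e-05). Fosl1 and Lgr4, chosen after their values were seen, made up the 5 (log2 1.20 and 0.22), and each was lost without LA library 2 (0.0700 and 0.190), ANGPTL4 library 2 (0.0895 and 0.0895), 3 (0.0970 and 0.0785) or 4 (0.0751 and 0.0507), Lgr4 also without ANGPTL4 library 1 (0.0721). Without any of the first 4 of these libraries, 3 targets were called higher.

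Among ligands and genes of their secretion, 3 of 14 (21.4%) were called lower and 1 (7.14%) higher, beside 7.32% and 6.60% of all genes. Wnt10a was at 15.7, 13.1, 14.96 and 9.75 CPM with LA and 20.1, 18.6, 25.2 and 17.8 CPM with ANGPTL4 (log2 -0.60 ± 0.12, adjusted p = 0.000531). Wnt9a fell by 0.37, and Porcn, the enzyme that puts the lipid on Wnt proteins, by 0.37 on the log2 scale (adjusted p = 0.000112 and 2.66e-05). In these 3 genes the LA libraries all lay below the ANGPTL4 libraries, beside 19.2% of all genes tested without overlap. Wnt5b was higher at about 1 CPM (log2 1.23, adjusted p = 0.0311), a call lost without LA library 2 or 4 or any single ANGPTL4 library (0.0508 to 0.0893), and without LA library 3 the list had 2 higher calls. Wnt11 was at 1.19, 0.858, 1.72 and 0.887 CPM with LA and 2.21, 1.96, 1.35 and 2.36 CPM with ANGPTL4 and missed the threshold (log2 -0.78 ± 0.28, adjusted p = 0.0595). It was called without LA library 3 (0.0294) or ANGPTL4 library 3 (0.0386), in a range of 0.0294 to 0.33 over all alternatives run.

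Matrix genes were higher with LA. Of 49 tested collagen and matrix genes, 25 were called higher and 1 lower (median 0.24). Col3a1, the collagen III chain, was at 10258, 8673, 9989 and 8812 CPM with LA and 6598, 7249, 7102 and 6849 CPM with ANGPTL4 (log2 0.44 ± 0.06, adjusted p = 1.11e-06). Mmp2, the gelatinase that cuts basement membrane collagen, was at 1774, 1834, 1847 and 2008 CPM with LA and 1145, 1242, 1275 and 1189 CPM with ANGPTL4 (log2 0.62 ± 0.06, adjusted p = 5.06e-09). The 2 groups were well apart in both genes. Col12a1, which lies along collagen I fibrils, and Col4a1, a chain of basement membrane collagen, rose by 0.67 and 0.57 on the log2 scale (adjusted p = 1.76e-07 and 4.58e-07). The 1 lower gene was Tnc, tenascin C, chosen after its values were seen, at 475 ± 78.2 CPM with LA and 702 ± 36.5 CPM with ANGPTL4 (adjusted p = 0.0279). Its call was lost without LA library 2 or 4 or ANGPTL4 library 1, 2 or 4 (0.0639 to 0.116), and without LA library 1 the list had 3 lower calls.

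Markers of mesenchymal cells other than muscle moved with these. Of 15 tested fibroblast markers, 9 were called higher with LA and 0 lower (median 0.48), and their summed level was 14322 to 16465 CPM with LA against 11650 to 12368 CPM with ANGPTL4. Fbln1, fibulin 1, was at 77.7, 113, 81.3 and 115 CPM with LA and 31.4, 32.3, 37.1 and 34.4 CPM with ANGPTL4 (log2 1.51 ± 0.15, adjusted p = 1.11e-06). Pdgfra, a receptor that marks fibro-adipogenic progenitors, was at 42.6, 46.1, 43.4 and 46.99 CPM with LA and 29.6, 28.2, 30.2 and 28.5 CPM with ANGPTL4 (log2 0.62 ± 0.09, adjusted p = 3.5e-06). Prrx1, a factor of limb mesenchyme, rose by 0.48 (adjusted p = 1.35e-07). Col3a1, Dcn (log2 0.83) and Lum (log2 0.79) stand in this list and in the matrix list, Dcn and Lum chosen after their values were seen. Thy1, Tcf21 and Twist1 were not among the genes of the table analysed here.

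All 6 tested adipocyte markers were called higher with LA (median 0.97), at a summed level of 71.8 to 90.7 CPM against 28.6 to 37.1 CPM with ANGPTL4. They were Lpl and Lipe, already given, Pparg, the adipocyte PPAR, at 8.02, 7.72, 7.72 and 8.47 CPM with LA and 6.12, 3.92, 6.07 and 5.29 CPM with ANGPTL4 (log2 0.59 ± 0.14, adjusted p = 0.00389), Cebpa (log2 0.45, adjusted p = 0.00286), Zfp423 at 1.62 ± 0.180 CPM with LA (log2 1.68, adjusted p = 0.00145) and Dgat2. Pparg and Dgat2 lay outside the naming rule and complete the list. The genes that define adipocytes, Adipoq, Fabp4, Plin1, Cidec, Lep, Retn, Cfd and Adig, were not among the genes of the table analysed here. Lpl and Lipe are also genes of lipid use, so the list does not mark adipocytes alone. The summed level of the list with vehicle was 32.7 to 35.7 CPM at day 6. At day 2 it was 72.8 to 91.4 CPM with vehicle, 91.3 to 114 CPM with LA and 87.6 to 101 CPM with ANGPTL4. The day 6 sums with LA were thus not above those of day 2, and those with ANGPTL4 and vehicle were below them. Of 8 tested markers of bone and cartilage, 3 were called higher and 0 lower, and 2 had a log2 fold change below 0. The 3 were Omd, osteomodulin, at 33.6, 44.3, 28.7 and 48.7 CPM with LA and 8.84, 10.5, 10.1 and 13.4 CPM with ANGPTL4 (log2 1.84, adjusted p = 0.000721), Phex (log2 1.43, adjusted p = 0.000146) and Col10a1 at 2.33 ± 0.359 CPM with LA (log2 1.58, adjusted p = 0.00181). The summed level of this list overlapped, at 1819 to 2272.5 CPM with LA and 1684 to 1871 CPM with ANGPTL4. Omd stands in the matrix list too. Bglap, Ibsp, Acan and Col2a1 were not among the genes of the table analysed here, and Sp7, Alpl and Comp were removed for low counts. Sums over tested endothelial markers were 4.83 to 6.63 CPM with LA and 5.74 to 7.82 CPM with ANGPTL4, and over macrophage markers 6.01 to 7.29 CPM and 5.27 to 7.28 CPM. Each list had 3 tested genes, of which 0 were called by edgeR, limma-voom or DESeq2 and 0 had an unadjusted edgeR p under 0.05. The part of other cell types in the muscle and matrix differences was not tested.

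Genes of growth factor signalling were called in both directions. Igf1, insulin-like growth factor 1, was at 327, 347, 350.5 and 306 CPM with LA and 177, 184, 199 and 207 CPM with ANGPTL4 (log2 0.79 ± 0.09, adjusted p = 6.96e-07). Its binding proteins Igfbp2 and Igfbp3 rose by 1.39 and 0.74 on the log2 scale (adjusted p = 5.24e-06 and 4.2e-05), and 7 of 19 genes of the axis were called higher and 0 lower. Of 29 genes of TGF-β, BMP and myostatin signalling, 5 were called higher (17.2%) and 3 lower (10.3%), beside 6.60% and 7.32% of all genes. Id3, a BMP target that blocks myogenic factors, led the higher ones. It was at 30.1, 37.2, 33.8 and 38.1 CPM with LA and 16.8, 14.4, 19.7 and 14.7 CPM with ANGPTL4 (log2 1.09 ± 0.18, adjusted p = 0.000273). The other higher ones were Fstl1, Bmp4, Id1 and Smad6, and the lower ones Fst, Inhba and Tgfbr2, of which Id1, Smad6, Inhba and Tgfbr2 were chosen after their values were seen. Without ANGPTL4 library 4, 3 were called higher. Id1 was lost without LA library 4 (adjusted p 0.0706) or ANGPTL4 library 4 (0.0998), Smad6 without LA library 2 or ANGPTL4 library 2 or 4 (0.0649 to 0.0891) and after thinning (0.189), and Inhba without LA library 4 (0.0508). Tgfbr2 was lost with library totals alone (0.0814) and without LA library 2 or ANGPTL4 library 2, 3 or 4 (0.0544 to 0.136). Among 20 satellite and reserve cell genes, 5 were called higher (Vcam1 and, chosen after their values were seen, Cd34, Jag1, Notch2 and Sdc3) and 6 lower. Vcam1, an adhesion molecule, rose by 0.52 and Cd34 by 0.33 on the log2 scale (adjusted p = 0.00167 and 0.00367), while Cdh15 and Itga7 fell. Without ANGPTL4 library 2, 3 of this list were called lower. Sdc3 was lost without LA library 1 or 3 or ANGPTL4 library 1, 3 or 4 (adjusted p 0.0510 to 0.151).

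Parts of the oxidative stress, hypoxia and integrated stress response lists were higher with LA. Of 27 genes of the unfolded protein response and heat shock, 0 were called higher and 1 lower (median -0.01). The shares over all genes were 6.60% and 7.32%. Of 35 tested NRF2 targets of oxidative stress, 13 were called higher and 0 lower (median 0.19). Ephx1, an epoxide hydrolase, was at 144, 151, 139 and 142 CPM with LA and 105, 104, 93.2 and 99.1 CPM with ANGPTL4 (log2 0.53 ± 0.07, adjusted p = 1e-06). Cat, catalase, rose by 0.34, Gstm1, a glutathione transferase with close copies, by 0.94, and Hmox1, haem oxygenase 1, chosen after its values were seen, by 0.34 on the log2 scale (adjusted p = 0.000105, 0.000173 and 0.000578). Without LA library 4, 8 NRF2 targets were called higher. Of 33 hypoxia genes, 12 (36.4%) were called higher and 2 (6.06%) lower. Angptl4 is 1 of them, and Pdk1, which turns off pyruvate dehydrogenase, and Bnip3, a mitophagy receptor, rose by 0.49 and 0.45 (adjusted p = 0.000184 and 0.000268). The 2 lower ones, Bhlhe40 and Egln3, were chosen after their values were seen, and the list had 1 lower call without LA library 3 or 4 or ANGPTL4 library 2, 3 or 4. The call of Egln3 was lost without LA library 2, 3 or 4 or ANGPTL4 library 2, 3 or 4 (adjusted p 0.0831 to 0.235), and with DESeq2's size factors or test, library totals alone, no low-count filter or limma-voom (0.0520 to 0.118).

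Of 26 genes of the integrated stress response, 5 were called higher and 0 lower. Trib3, a pseudokinase induced by ATF4 and CHOP, was at 6.63, 7.15, 6.13 and 5.81 CPM with LA and 4.76, 2.75, 2.696 and 3.15 CPM with ANGPTL4 (log2 0.98 ± 0.17, adjusted p = 8.13e-05). Asns and Pck2 rose by 0.26 and 0.41 on the log2 scale (adjusted p = 0.00147 and 0.000756). Fgf21, a hormone switched on by PPARs and by ATF4, was at 20.2 ± 1.18 CPM with LA and 15.2 ± 2.65 CPM with ANGPTL4 (adjusted p = 0.022), a call lost without LA library 4 (0.0527) or ANGPTL4 library 3 (0.109). Gdf15 was the other. Without either of those libraries, 3 of the list were called, as with limma-voom, and with the 2 groups fitted alone 9 were.

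Among 48 cell cycle genes, 9 were called higher and 1 lower (median 0.12). Mcm4 and Mcm3, parts of the replication helicase, rose by 0.39 and 0.48 on the log2 scale (adjusted p = 6.15e-05 and 0.000234), and E2f2, a factor of the cycle, fell by 0.57 (adjusted p = 1.4e-06). The count of 9 fell to 4 without LA library 2 and to 5 without LA library 4 or ANGPTL4 library 3. Oxidative phosphorylation had 9 of 77 genes called lower (11.7%, beside 7.32% of all genes) and 0 higher, with 71 of 77 below 0 (median -0.14). A further 15 listed symbols, all of ATP synthase subunits, were not among the genes of the table analysed here. Ndufs1, a subunit of complex I, was at 166, 159.8, 161 and 159 CPM with LA and 188, 189.6, 174 and 190.0 CPM with ANGPTL4 (log2 -0.20 ± 0.05, adjusted p = 0.0038). The count was 24 with the 2 groups fitted alone, 4 with library totals alone, and 2 to 5 without LA library 2 (2) or 4 (4) or ANGPTL4 library 1 (5), 2 (4), 3 (5) or 4 (4). Of 77 cytosolic ribosomal protein genes, 0 were called by edgeR, limma-voom or DESeq2, and 0 had an unadjusted edgeR p under 0.05.

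**Figure D4:**
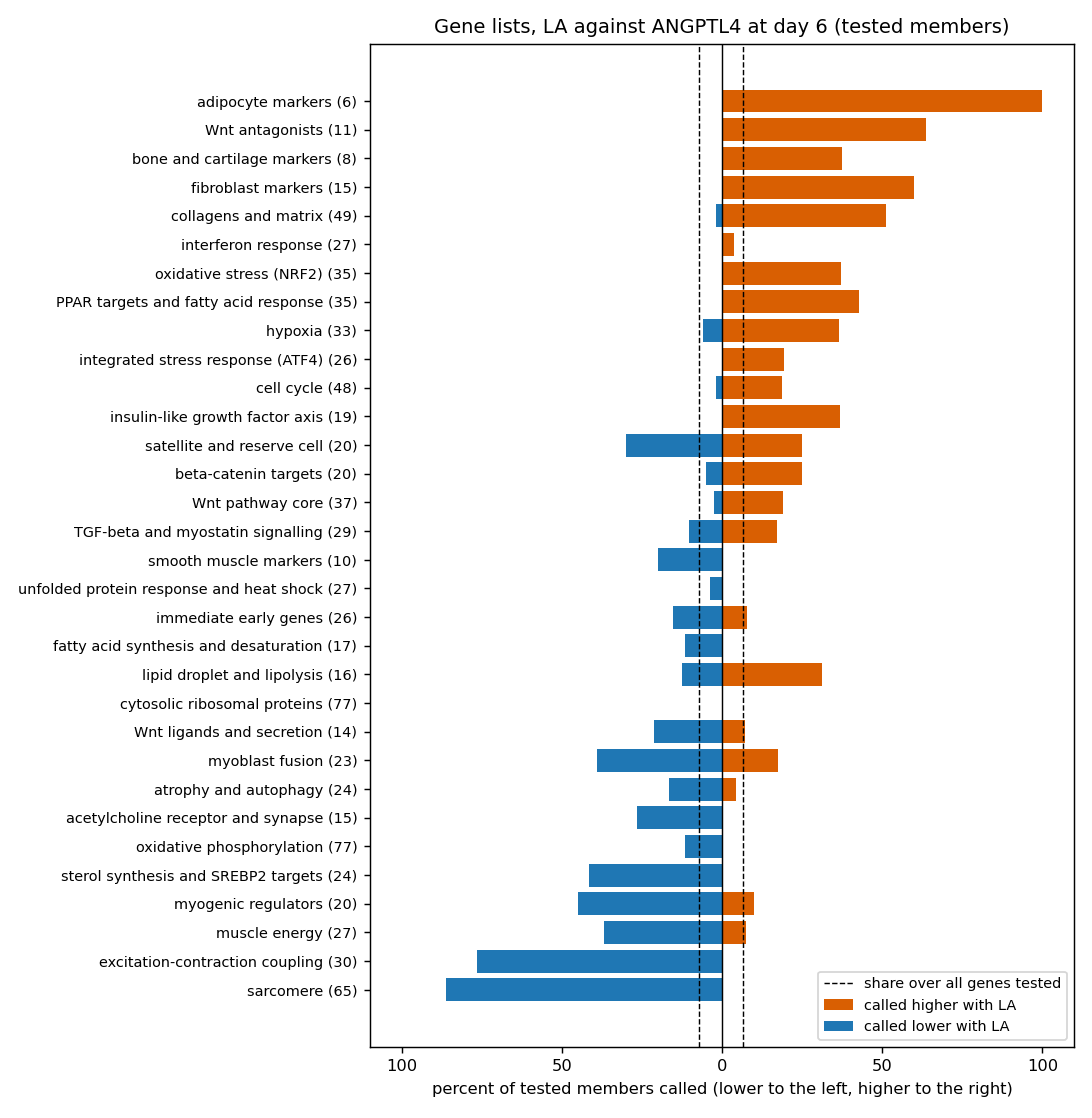
For each gene list with at least 5 tested members (number in brackets), the bar to the right is the percent of tested members called higher and the bar to the left the percent called lower with LA, ordered by the list's median log2 fold change; the dashed lines are the shares over all genes tested, 6.60% and 7.32%. Sarcomere and excitation-contraction coupling lie farthest left, and adipocyte markers and Wnt antagonists farthest right.

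Outside the lists, the naming rule took the 10 highest and 10 lowest called genes without overlap and with at least 5 CPM. Besides Angptl4, Plin4, Lpl and Sfrp1, the highest were Cyp2f2, Ces1a, Cxcl5, Prtg, Aoc3 and Aqp1. Cyp2f2, a cytochrome P450, was at 6.76, 15.5, 6.87 and 9.55 CPM with LA and 1.19, 1.18, 1.35 and 1.01 CPM with ANGPTL4 (log2 3.03 ± 0.41, adjusted p = 1.23e-05). Ces1a, a carboxylesterase with close copies, was at 5.504, 10.3, 6.37 and 10.2 CPM with LA and 1.02, 1.05, 1.62 and 1.35 CPM with ANGPTL4 (log2 2.65 ± 0.24, adjusted p = 1.42e-09). The ANGPTL4 libraries of both lay near 1 CPM. Aoc3, a semicarbazide-sensitive amine oxidase, was at 13.7, 14.9, 13.7 and 16.5 CPM with LA and 2.89, 3.79, 3.37 and 3.83 CPM with ANGPTL4 (log2 2.06 ± 0.16, adjusted p = 1.1e-10). Aqp1, a water channel, was at 40.5, 68.7, 45.4 and 67.2 CPM with LA, where libraries 2 and 4 were the high ones, and 14.3, 10.98, 16.04 and 13.2 CPM with ANGPTL4 (log2 2.02 ± 0.27, adjusted p = 3.54e-05). The chemokine Cxcl5 and Prtg, protogenin, rose by 2.402 and 2.08 (adjusted p = 0.00386 and 2.13e-07).

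At the low end, Padi2, a peptidylarginine deiminase, was at 22.7, 15.5, 21.6 and 19.4 CPM with LA and 60.5, 53.5, 50.4 and 51.6 CPM with ANGPTL4 (log2 -1.44 ± 0.10, adjusted p = 3.38e-11). Col23a1, a transmembrane collagen, was at 10.1, 3.62, 8.95 and 4.14 CPM with LA, with libraries 2 and 4 the low ones, and 23.96, 22.5, 23.2 and 18.6 CPM with ANGPTL4 (log2 -1.67 ± 0.22, adjusted p = 8.41e-06). Igfn1, a sarcomeric protein of the Z-disc, was at 17.6, 17.2, 16.4 and 15.2 CPM with LA and 42.7, 49.4, 34.1 and 33.99 CPM with ANGPTL4 (log2 -1.26 ± 0.17, adjusted p = 2.54e-05). The naming rule took only genes without overlap, so in all 3 the highest LA library was below the lowest ANGPTL4 library by choice. Xirp2, an actin-binding muscle protein, fell by 1.02, Aldh3b3, an aldehyde dehydrogenase, by 1.33, Ctrb1 by 1.20 and Adamtsl1 by 0.93 on the log2 scale (adjusted p = 0.0123, 8.99e-07, 9.44e-08 and 4.02e-10). B4galnt3 (log2 -1.04), Atg9b (log2 -0.95) and the non-coding Hectd2os (log2 -1.06) completed the 10.

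Against vehicle at day 6, 2237 genes (17.2% of those tested) were called with LA, 1018 (7.83%) higher and 1219 (9.38%) lower. With ANGPTL4, 3 genes (0.0231%) were called, 2 (0.0154%) higher and 1 (0.00770%) lower. These comparisons share the vehicle libraries and each shares a group with the comparison above, so their values are set side by side only. The 3 genes called with ANGPTL4, chosen after their values were seen, were Naalad2, a peptidase, Dld, a subunit of pyruvate dehydrogenase, and Sik1, a kinase. Naalad2 was at 17.7 ± 1.05 CPM with ANGPTL4, 20.2 ± 0.385 CPM with LA and 12.4 ± 0.755 CPM with vehicle (log2 0.51 for ANGPTL4 against vehicle, adjusted p = 0.0314). Dld was at 289 ± 9.46, 250.1 ± 8.84 and 243 ± 2.99 CPM (log2 0.25, adjusted p = 0.0359), and Sik1 at 147 ± 9.99, 139 ± 4.15 and 178 ± 8.52 CPM (log2 -0.28, adjusted p = 0.0467). In ANGPTL4 against vehicle, 1513 genes had an unadjusted p under 0.05, limma-voom called 2 genes and DESeq2 47, and the fit of these 2 groups alone called 83. The count was 7 without ANGPTL4 library 1, 0 without ANGPTL4 library 2 or 3 or vehicle library 1 or 2, and 1 without ANGPTL4 library 4 or vehicle library 3.

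For genes of the comparison, the log2 fold change against vehicle was 3.77 with LA and -0.12 with ANGPTL4 for Angptl4, 1.79 and 0.15 for Cpt1a, and 2.63 and -0.14 for Lpl. For Acta1 it was -0.43 and -0.07, for Ryr1 -0.59 and -0.14, and for Mymk -0.59 and -0.21. Sfrp1 had 1.78 and -0.34, Lrp5 0.54 and 0.02, and Mmp2 0.64 and 0.02. With LA each of these 9 genes was called against vehicle, and with ANGPTL4 none was (edgeR adjusted p 0.208 to 0.947). The list medians were -0.39 with LA and 0.05 with ANGPTL4 for sarcomere genes, 0.20 and 0.03 for PPAR targets, and 0.45 and -0.08 for Wnt antagonists. Axin2, not called between LA and ANGPTL4, was called lower with LA than with vehicle (log2 -0.35, adjusted p = 0.0138), as was Wnt11 (log2 -1.35, adjusted p = 0.000122).

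At day 2 the same 2 treatments differed in 12 genes (0.0924% of those tested), 8 (0.0616%) higher and 4 (0.0308%) lower with LA, and 7 of the 12 were among the 1809 called at day 6. Angptl4 was at 81.7 ± 1.32 CPM with LA and 21.6 ± 0.5901 CPM with ANGPTL4 at day 2 (log2 1.92, adjusted p = 2.04e-21), Cpt1a at 141 ± 0.7596 and 89.96 ± 2.76 CPM (log2 0.65, adjusted p = 3.04e-11). Plin2, Ucp2 and Klf11, a Krüppel-like factor, were also higher (log2 0.29, 0.43 and 0.68, adjusted p = 0.00352, 0.0203 and 0.000653). Oxct1, an enzyme of ketone body use, and Prkg2, a cGMP-dependent kinase, were lower at day 2 (log2 -0.31 and -0.35, adjusted p = 0.00537 and 4.21e-05), and at day 6 Oxct1 was called again (log2 -0.30) and Prkg2 was not (log2 -0.12, adjusted p = 0.0843). Klf11, Oxct1 and Prkg2 were chosen after their values were seen. The day 2 count rested on single libraries, at 363 without LA library 4, 159 without LA library 3, 102 without ANGPTL4 library 4, 6 or 7 without LA library 1 or 2 or ANGPTL4 library 3, and 6 with the 2 groups fitted alone. At day 2, 1607 genes had an unadjusted p under 0.05.

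Whether the difference between treatments itself differed between the days was tested as an interaction, and 901 genes (6.93%) were called, 485 (3.73%) of them higher and 416 (3.20%) lower at day 6. Of the 1809 genes called at day 6, 800 were among them, a count that their choice by a call at day 6 raises. Genes called higher at day 6 had a median log2 fold change of 0.41 at day 6 and -0.01 at day 2, and genes called lower -0.28 and -0.03. Since these genes were chosen by their day 6 values, the larger medians at day 6 follow in part from that choice and are a description only. Lpl was at 64.7 ± 8.96 CPM with LA and 59.3 ± 5.66 CPM with ANGPTL4 at day 2, where it was not called (adjusted p = 0.789), and its day difference was 2.63 ± 0.32 on the log2 scale (adjusted p = 4.3e-05). Pdk4 was not called at day 2, at 33.0 ± 5.34 CPM with LA and 32.7 ± 1.698 CPM with ANGPTL4, and its day difference was 1.50 ± 0.16 (adjusted p = 1.5e-06). For Angptl4 the day difference was 1.97 ± 0.09 and for Cpt1a 0.98 ± 0.07 (adjusted p = 3.3e-16 and 1.02e-11). Among muscle genes, 43 of 65 sarcomere genes were called lower in this test and 0 higher, and Neb, at 2159 ± 292 CPM with LA and 2065 ± 241 CPM with ANGPTL4 at day 2, had a day difference of -0.74 ± 0.14 (adjusted p = 0.00138). Myod1 and Myog were not called in it (log2 -0.07 and -0.18, adjusted p = 0.669 and 0.255). Of the Wnt antagonists, 6 of 11 were called higher, and Sfrp1, at 5.52 ± 1.58 CPM with LA and 6.68 ± 1.29 CPM with ANGPTL4 at day 2, had a day difference of 2.32 ± 0.37 (adjusted p = 0.000286). Ctnnb1 and Axin2 were not called (log2 0.12 and -0.29, adjusted p = 0.273 and 0.255).

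**Figure D5:**
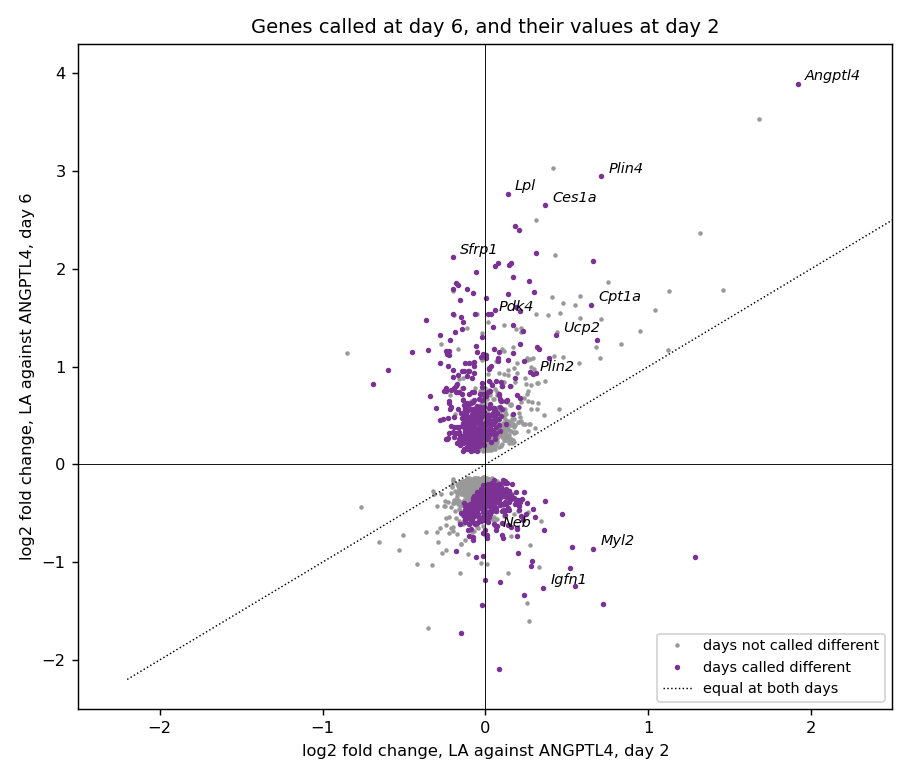
Each point is 1 of the 1809 genes called at day 6, with its log2 fold change, LA against ANGPTL4, at day 2 on the horizontal axis and at day 6 on the vertical axis; purple points were called different between the days and the dotted line marks equal values. Most genes lie near 0 at day 2, and Angptl4, at 1.92 and 3.89, is the named gene farthest to the right.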

How the data were processed

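The members and gene lists were chosen with earlier results of these data known. Libraries were made with a QuantSeq 3′ mRNA kit from total RNA with an RNA integrity number above 7.0, per the labels' protocols, so each transcript gives reads near its end. The submitters' processing notes name Trimmomatic, STAR 2.7.1a, HTSeq 0.9.1, DESeq2, DESeq and build mm39, while their settings, the strand setting and the annotation are not given in the sources used here. The deposited values are whole-number counts per gene for 14693 genes in 24 libraries, with a lowest gene total of 51, made by the authors. Genes with near-identical copies (myosin heavy chains, Ces1a, Gstm1) and overlapping or antisense genes (Hectd2os) are uncertain for that reason.

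The filter filterByExpr kept 12994 genes and removed 1699. edgeR 4.0.16 in R 4.3.3 was run with TMM scaling and robust quasi-likelihood fits on 6 group means over all 24 libraries (18 residual degrees of freedom, common biological variation 6.51%), with Benjamini-Hochberg adjustment. The same fit gave the comparisons with vehicle, the comparison at day 2 and the interaction of treatment and day. The code of the test was also run on simulated counts with known changes, a check of the code and not of these results. CPM values are counts divided by TMM-scaled library sizes, given as mean ± SD over 4 libraries or by library, and the error of a log2 fold change is an approximate SE, its size divided by the root of the F statistic. Principal components used log2 CPM with a prior count of 2. Means of single measures were compared by exact permutation of 4 against 4 libraries.

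The genes named are a fixed panel, the 10 highest and 10 lowest called genes without overlap and with at least 5 CPM, up to 4 called genes of each list with the smallest adjusted p, and the 5 highest and 5 lowest of the interaction, of which the text gives some. Genes named outside it are marked. Some genes that the rule takes are not reported here. Alternatives were other scalings, filters, limma-voom (limma 3.58.1), DESeq2 1.42.0, the replicate number as a block, the compared groups alone, each library left out, and thinning, which was added after seeing the data. Figures were drawn with matplotlib.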

Additional observations from a re-analysis of the deposited data

Results flagged for a closer look

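Some single libraries lay apart from the other 3 of their group by Dixon's test, which chance alone passes in about 1 in 20 groups. It was run on 172 genes in both groups, 344 sets of 4 values, and on 4 further sets of library totals and components, and 23 values passed it. In ANGPTL4 library 1 these were Ttn at 17282 CPM, Plin2 at 82.2 CPM, Csnk1a1 at 556 CPM, Atg12 at 74.4 CPM, Eda2r at 370.3 CPM, Fstl1 at 967 CPM and the second principal component at 23.4. In ANGPTL4 library 2 they were Actn3 at 816 CPM, Chrnd at 211 CPM, Chrna1 at 973 CPM, Pygm at 243 CPM and Igfbp3 at 68.6 CPM. Ndufs1 at 174 CPM stood apart in ANGPTL4 library 3, and Cxcl5 at 3.15 CPM, Naalad2 at 16.1 CPM and Lgr4 at 43.4 CPM in ANGPTL4 library 4. In LA library 2 they were Tead4 at 86.0 CPM, Cacna1s at 230.1 CPM, Pygm at 155 CPM, Nr4a3 at 5.44 CPM, Lrp6 at 273 CPM and Lgr4 at 54.9 CPM, and in LA library 3 Zfp423 at 1.35 CPM.

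The difference between LA and ANGPTL4 was followed between the days in 31 of the named genes, and in 27 of these it differed by edgeR's interaction test. Other genes named here were not counted, and some were called in it too, such as Actn3 and Acaa2, picked after their values were seen. On the log2 scale, day 6 minus day 2, it was 1.97 for Angptl4, 0.98 for Cpt1a, 0.63 for Plin2, 0.89 for Ucp2, 1.498 for Pdk4, 2.24 for Plin4 and 2.63 for Lpl. Muscle genes had -0.46 for Tead4, -0.38 for Mymk, -0.46 for Ankrd1, -0.29 for Acta1, -0.74 for Neb, -1.53 for Myl2, -1.61 for Igfn1, -0.51 for Ryr1 and -0.56 for Chrng. Acta1 lost its call without LA library 2 of day 6 (adjusted p = 0.0572). Wnt, matrix and growth factor genes had 0.46 for Lrp5, 0.71 for Ccn5, 2.32 for Sfrp1, 0.72 for Mmp2, 0.71 for Col12a1, 0.51 for Col3a1, 1.66 for Fbln1, 0.81 for Igf1 and 1.53 for Igfbp2. Ces1a had 2.29 and Aldh3b3 -1.57.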

How the results depend on the processing

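The comparison of LA with ANGPTL4 at day 6 gave 1272 to 1694 called genes with each library left out in turn and 1519 to 2124 under the other alternatives, and the interaction 612 to 1102 and 674 to 960. Of 159 called genes that the naming rule takes or the text adds, 130 kept their call under every alternative run. ANGPTL4 against vehicle, with 3 genes, gave 1 with DESeq2's size factors or library totals alone, 47 with DESeq2's test, 83 with the compared groups alone, 0 after thinning and 0 to 7 with each library left out. LA against ANGPTL4 at day 2, with 12 genes, gave 30 with limma-voom, 32 with DESeq2, 6 with the compared groups alone and 6 to 363 with each library left out. The cause was not tested. The median of the 3 endothelial markers, -0.13, ran from -0.17 to 0.14 with each library left out and turned to 0.12 without LA library 4, 0.04 without ANGPTL4 library 1 and 0.14 without ANGPTL4 library 3, and with a minimum of 5 CPM no such gene was left. Same-numbered LA and ANGPTL4 libraries had correlations of 0.14, -0.14, 0.02 and 0.18 in their deviations from the group means. Those of differently numbered libraries ran from -0.31 to 0.23. The labels do not say whether the numbers pair libraries, and so few correlations cannot decide it. With the replicate number as a block, 1779 genes were called at day 6, 829 in the interaction, 2130 for LA against vehicle, 8 at day 2 and 0 for ANGPTL4 against vehicle. Depth limits genes of about 1 CPM, which the smallest library, at 6.101 M counts, holds with few reads.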

Other observations

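Of 24 tested genes of atrophy and autophagy, 4 (16.7%) were called lower with LA than with ANGPTL4 and 1 (4.17%) higher. The shares over all genes were 7.32% and 6.60%, and the list median was -0.10, beside -0.01 over all genes. Atg12, which is joined to Atg5 in autophagy, was at 65.7 ± 3.91 CPM with LA and 80.2 ± 3.84 CPM with ANGPTL4 (log2 -0.29, adjusted p = 0.000525), and Eda2r, a receptor of ectodysplasin A2, at 323 ± 15.5 CPM and 402 ± 21.1 CPM (log2 -0.32, adjusted p = 0.00074). Cdkn1a and Trim63 were the other lower genes and Bnip3 the higher one, Trim63 being chosen after its values were seen, and 2 were higher without LA library 3. Trim63 was lost without LA library 3 (adjusted p 0.0560) or ANGPTL4 library 2 (0.0561). Of 26 immediate early genes, 4 (15.4%) were called lower and 2 (7.69%) higher, beside 7.32% and 6.60% of all genes. The 2 higher ones were Fosl1 and Klf2, chosen after their values were seen. The higher count was 0 without LA library 2 or ANGPTL4 library 2 or 4 and 1 without LA library 4 or ANGPTL4 library 1 or 3. Egr3 and Egr2, zinc finger factors, were at 123 ± 15.2 and 8.44 ± 0.951 CPM with LA and at 174 ± 6.01 and 12.5 ± 1.33 CPM with ANGPTL4 (adjusted p = 2.75e-06 and 0.00332), and Btg2 and Nr4a3 fell by 0.29 and 0.63 on the log2 scale (adjusted p = 0.00705 and 0.0101). Btg2 was lost without ANGPTL4 library 2 (0.0593), and Nr4a3 without ANGPTL4 library 4 (0.0750) and after thinning (0.0605). Klf2 was also lost with limma-voom (0.0837) and after thinning (0.0540).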
